A study of Mus musculus with 28 samples.

Results

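Microglia are the resident macrophages of the retina, and the genes described here are 32 genes by which microglia and other immune cells are recognised. They were listed by name, by a rule that uses no measured value: 4 transcription factors, 9 microglial surface receptors with a prostaglandin D synthase, 4 adaptors and receptors that signal through ITAM motifs, the 3 chains of complement C1q, 6 integrins and pan-leukocyte membrane proteins, 5 lysosomal and macrophage proteins and 1 chain of the T cell receptor complex. The list was drawn up with earlier results of these data known. The genes are 32 of 21938 protein-coding genes on the autosomes, X and Y. For each gene, accessible chromatin was taken from the gene body and 5 kb to each side of it, which gave 31 of 46189 regions in control Müller cells and 41 of 64883 regions in db/db Müller cells.

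Müller cells are the main glia of the retina, and the question put to these genes was how much open chromatin of immune cells the purified Müller cells carried. The study measured chromatin accessibility by omni-ATAC-seq, in which a transposase cuts open DNA, in Müller cells purified from mouse retina. The mice were 6 months old, and a single list of peaks was used here for each genotype, the one filed under replicate 1 of 2. The db/db mice carry a mutated leptin receptor gene (Lepr) on the BKS background and are obese and diabetic; the control ATAC samples are labelled WT, while the study's methods describe wild-type and db/+ animals as controls, with both sexes used. Of 28 samples, the 24 RNA samples were not analysed here. Retinas were digested with papain and passed over magnetic beads in sequence: cells bearing CD11b were removed, then cells bearing CD31, and cells bearing CD29 were kept as Müller cells. CD11b is the product of Itgam, one of the 32 genes, so microglia were the cells that the first step was meant to remove. In its ATAC results the study states that photoreceptors cannot be kept out of its Müller cells entirely. Its description of the sort assumes a few astrocytes in the kept fraction. A difference between the genotypes therefore rests on 1 list against 1, without replicates, and no p-value is given.

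Microglia arise from yolk sac progenitors and depend on the receptor Csf1r and on the transcription factor PU.1, which binds GAGGAA-like sites in promoters and enhancers of many myeloid genes. Mature microglia are told from other macrophages by P2ry12, Tmem119, Siglech, Fcrls, Gpr34 and Sall1. An ATAC-seq peak marks a stretch that is open in enough of the cells sampled, so a promoter used only by a rare cell type may give no peak, and a gene without a region is not shown to be closed in the cells that express it.

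The promoters that the results turn on are shown as the 200 bases before the transcription start site (TSS), from RefSeq on GRCm38.p6, which is mm10, the build of the lists. The capitals mark GAGGAA, the core of a PU.1 site, or TTCCTC, the same letters on the other strand. Irf8, P2ry12 and the proximal Runx1 promoter are shown because a region lay over them in both lists. Itgam, Aif1 and Sall1 are shown because they define microglia or the sort and no region lay over them in either list.

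Irf8, chr8:120736158-120736357, plus strand: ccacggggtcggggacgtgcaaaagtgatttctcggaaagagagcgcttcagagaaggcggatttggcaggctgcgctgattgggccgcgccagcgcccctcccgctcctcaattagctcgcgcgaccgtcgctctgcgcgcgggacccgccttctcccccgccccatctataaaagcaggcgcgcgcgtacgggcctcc
Runx1 proximal promoter, chr16:92697330-92697529, minus strand: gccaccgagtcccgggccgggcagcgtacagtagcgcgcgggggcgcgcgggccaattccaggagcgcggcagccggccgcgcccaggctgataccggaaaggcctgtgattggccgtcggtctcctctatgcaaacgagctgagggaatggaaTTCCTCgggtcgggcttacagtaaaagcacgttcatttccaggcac
P2ry12, chr3:59262986-59263185, minus strand: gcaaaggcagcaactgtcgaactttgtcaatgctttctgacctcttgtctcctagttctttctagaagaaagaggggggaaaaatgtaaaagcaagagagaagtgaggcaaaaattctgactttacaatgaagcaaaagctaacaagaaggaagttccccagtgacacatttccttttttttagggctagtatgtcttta
Itgam, chr7:128062440-128062639, plus strand: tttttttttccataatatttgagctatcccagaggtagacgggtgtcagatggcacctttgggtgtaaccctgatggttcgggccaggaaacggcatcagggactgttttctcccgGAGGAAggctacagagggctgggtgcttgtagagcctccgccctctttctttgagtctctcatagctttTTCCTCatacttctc
Aif1, chr17:35176053-35176252, minus strand: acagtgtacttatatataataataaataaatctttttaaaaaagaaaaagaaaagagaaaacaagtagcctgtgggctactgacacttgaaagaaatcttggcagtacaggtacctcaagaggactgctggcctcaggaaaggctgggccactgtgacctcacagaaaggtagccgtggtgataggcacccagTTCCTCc
Sall1, chr8:89044163-89044362, minus strand: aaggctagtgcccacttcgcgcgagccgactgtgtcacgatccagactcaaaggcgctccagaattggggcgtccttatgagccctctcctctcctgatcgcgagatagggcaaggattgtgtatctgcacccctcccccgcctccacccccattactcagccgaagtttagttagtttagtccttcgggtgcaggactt

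All 200 bases shown of Irf8 and of the proximal Runx1 promoter lay inside a region in both lists, and 176 of the P2ry12 bases did in the control list and 120 in the db/db list. The ratio of observed to expected CpG over the 250 bases before the TSS was 1.03 for Irf8 and 0.978 for Runx1, the values of CpG islands, and 0.280 for P2ry12. It was 0.390 for Itgam, 0.0845 for Aif1 and 0.658 for the Sall1 start shown. Further RefSeq starts of Sall1 had 0.782 and 0.724, also with no region over them. Each Sall1 value was above 0.6, the limit set for CpG-rich promoters. Another RefSeq start of Irf8, with no region over it, had 0.440. GAGGAA on either strand was found 2 times in the Itgam promoter, once each in those of Aif1 and Runx1, and not in those of Irf8, P2ry12 and Sall1; it stood in 22.5% of the 20150 promoter sequences of coding genes. No share over the members is set beside this, since fewer than 80% of them had a sequence, and the 6 promoters shown were picked for their regions. These are matches of letters, not measured sites. The RefSeq promoter was taken as 250 bases before to 50 after the TSS. Among the 25 members with a sequence at hand, a region lay over one at Irf8, Runx1 and P2ry12 alone, in both lists. The same count over all coding genes was not made, so this is not read as few or many.

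Few promoters of immune genes were open. A promoter was counted as open when a region overlapped 1 kb to each side of any annotated TSS of the gene in GENCODE M21. In the control list 5 of 32 members had such a region, 15.6% with a 95% Wilson interval of 6.86 to 31.8%, against 59.4% of all coding genes. In the db/db list the same 5 members had one, again 15.6%, against 62.5% of all coding genes. The 5 were Irf8, Runx1, P2ry12, Fcgr3 and C1qc. The intervals cover counting error over genes only.

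**Figure D1:**
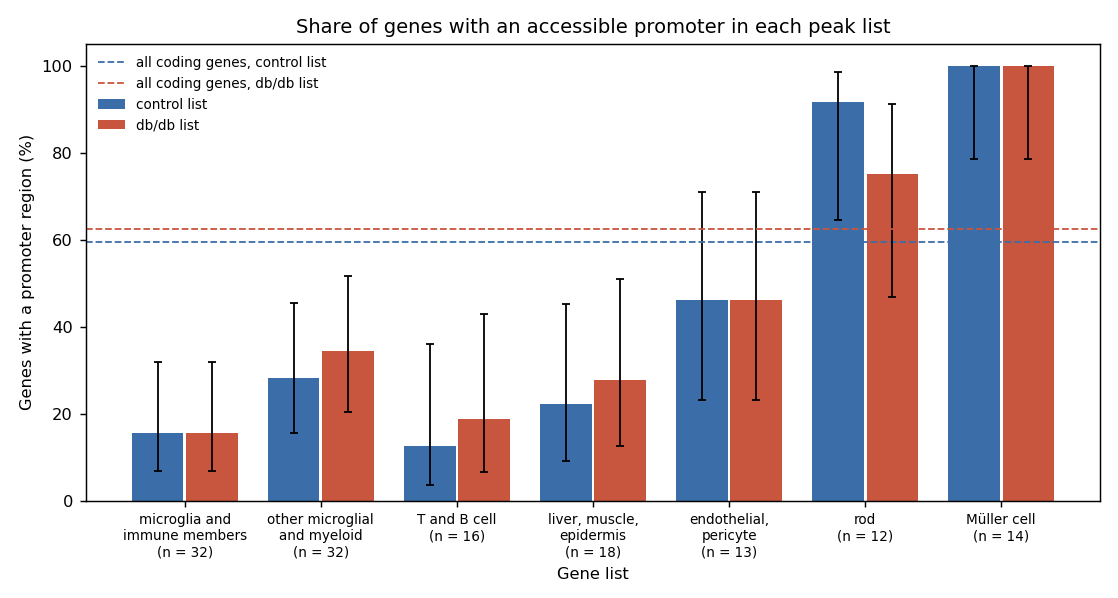
Percentage of genes with a region within 1 kb of an annotated TSS (y axis) for each gene list (x axis), in the control list (blue bars) and the db/db list (red bars); error bars are 95% Wilson intervals, n is the number of genes, and dashed lines mark all coding genes (59.4% and 62.5%). Microglia and immune members stood at 15.6% in both lists, below both dashed lines, and Müller cell markers at 100%.

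Any region at all within 5 kb was found at 17 of 32 members in each list, 53.1% with an interval of 36.4 to 69.1%, against 70.5% of coding genes in the control list and 73.9% in the db/db list. The same 17 genes had regions in both lists. The other 15 had none in either: Sall1 among the transcription factors; P2ry13, Tmem119, Siglech, Fcrls, Gpr34 and Hpgds among the microglial surface genes; Trem2; Itgam, Itgax, Cd53 and Laptm5 among the leukocyte membrane genes; Ctss and Lyz2; and Cd3e. Of the 6 genes that mark mature microglia most closely, P2ry12 alone had a region. A region within 5 kb also need not belong to the member. Of the regions, 8 of 31 in the control list and 11 of 41 in the db/db list lay within 1 kb of the TSS of a gene that is no member. The same share over all regions was not counted, so this is not read as a trait of the members. Without regions at the TSS of other genes, 12 of 32 members had any region and 4 had an open promoter in each list. Coding genes as a whole were not filtered in this way, so these counts cannot be set against the shares above.

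The distance from the TSS of the principal transcript gave a finer scale. That TSS lay inside a region for 2 of 32 members, Irf8 and P2ry12, in each list (6.25%), and for 52.5% of coding genes in the control list and 54.8% in the db/db list. The nearest region was a median of 15.3 kb away for members in the control list and 9.01 kb in the db/db list, where the median coding gene had its TSS inside a region. It was more than 10 kb away for 17 members in the control list and 15 in the db/db list, 53.1% and 46.9%, against 33.1% and 29.0% of coding genes.

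**Figure D2:**
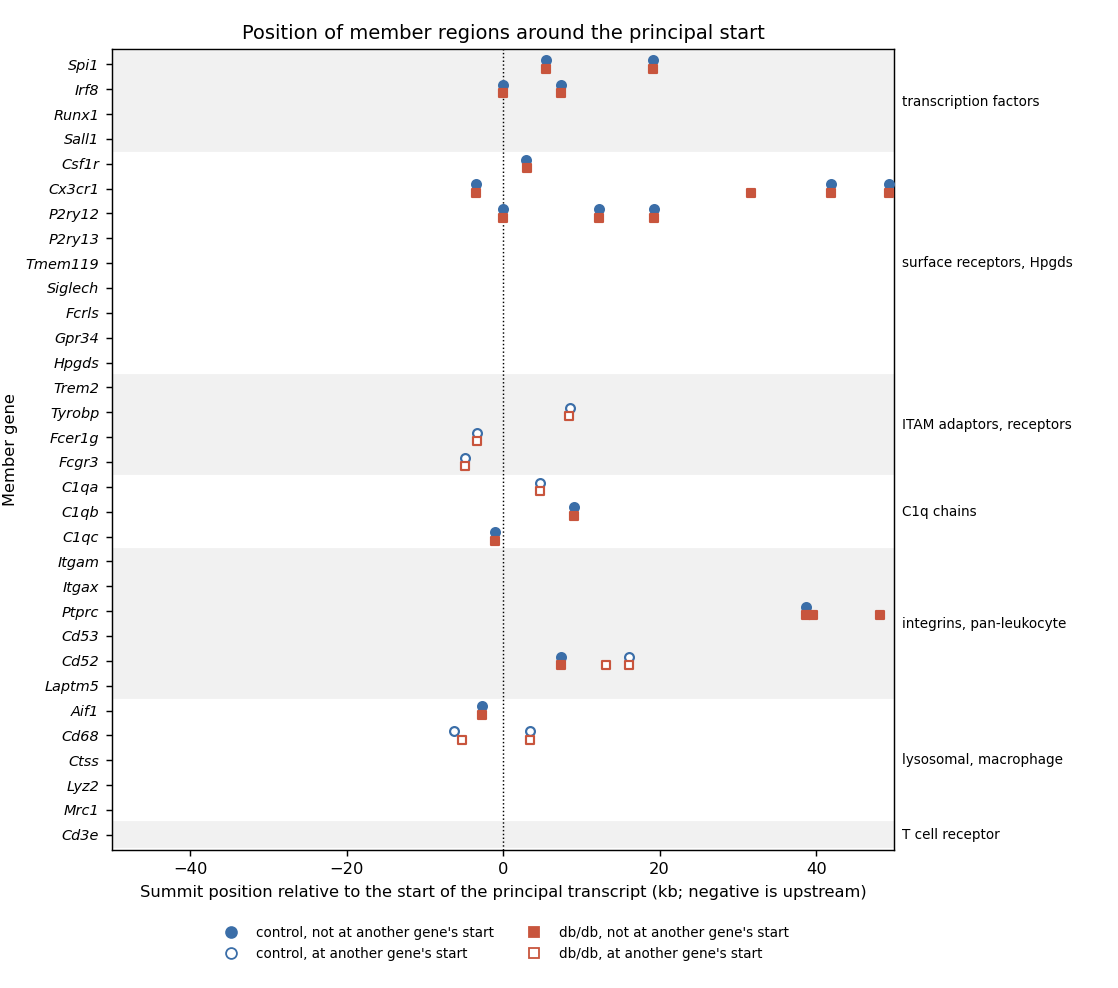
Summit of each member region relative to the TSS of the principal transcript (x axis, kb, negative is upstream) for the 32 members (rows, grouped by role), in the control list (blue circles) and the db/db list (red squares); open symbols lie within 1 kb of the TSS of another gene, and summits more than 50 kb away, at Runx1, Cx3cr1 and Mrc1, are not drawn. Irf8 and P2ry12 had a summit at the dotted line, and 15 rows had no region in either list.

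Among the transcription factors, Irf8 had the strongest open promoter of the 32 genes. Irf8 encodes an interferon regulatory factor that pairs with PU.1 in macrophages. Its promoter region, chr8:120735713-120736827 in the control list, held the TSS and had a signal, a fold enrichment read from the lists, of 19.0 in the control list and 17.8 in the db/db list. Ranked within each list, where percentile 0 is the weakest region and 100 the strongest, these were percentiles 90.7 and 92.7. A second region in an exon, 7387 bp downstream of the TSS by its control summit, stood at 33.7 in the control list and 39.9 in the db/db list.

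Runx1 encodes a runt factor needed to form blood cells and is used in several other cell types. Its region at the proximal promoter stood at percentile 48.0 in the control list and 49.3 in the db/db list, and the region next to it at 64.3 and 68.3. That neighbour counted as a promoter region in the db/db list only, where it reached 1 kb from the TSS. An intronic region nearer the 3′ end stood at 50.6 and 53.5. The principal TSS of Runx1, the distal start, had no region near it: the nearest was 125 kb away in the control list and 19.5 kb in the db/db list.

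Spi1, the gene of PU.1, had no promoter region in either list, but its 2 regions ranked high. The stronger lay in an intron, 5467 bp downstream of the principal TSS (chr2:91101242-91101923), at percentile 95.2 in the control list and 91.6 in the db/db list. The other lay in an exon at the 3′ end of the gene, at 81.3 and 83.2. Sall1, which keeps microglial identity in the brain and is also expressed in other tissues, had no region within 5 kb; its nearest region was 15.2 kb from the TSS in the control list and 158 kb in the db/db list.

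Of the microglial surface genes, P2ry12 was the one with an open promoter. P2ry12 is the ADP receptor by which microglia sense injury. Its promoter region, chr3:59262657-59263161 in the control list, had its summit 3 bp upstream of the principal TSS and a signal of 12.8, percentile 65.4; in the db/db list the signal was 12.6, percentile 76.0. Its intronic regions stood at 80.2 and 19.0 in the control list and at 74.1 and 49.3 in the db/db list. All 3 lie within the span of Med12l, a gene that holds P2ry12 on the other strand. P2ry13, its neighbour and a related ADP receptor, had no region, the nearest being 32.1 kb away in the control list and 32.2 kb in the db/db list.

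Csf1r, the receptor for CSF1 and IL-34 on which microglia depend for survival, had 1 region and no open promoter. It lay in an intron, 2954 bp downstream of the principal TSS in the control list, with a signal of 8.50 in the control list and 8.63 in the db/db list, percentiles 32.2 and 50.4. Csf1r is known for an intronic enhancer called FIRE that is used in macrophages; whether the region is that enhancer was not tested.

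Cx3cr1, the fractalkine receptor, had more regions than any other member, 8 in the control list and 13 in the db/db list, with none at its promoter. Its annotated span is 168 kb long and holds other genes, and the regions within it lay at or inside Gorasp1, Ttc21a, Csrnp1, 1700019L13Rik, Xirp1 and Gm49427 as well as in stretches with no other gene. The strongest in the control list overlapped Gm49427, at percentile 93.0 there and 90.4 in the db/db list, and the strongest in the db/db list lay in Ttc21a, at 85.9 in the control list and 91.9 in the db/db list. The region nearest to the principal TSS of Cx3cr1 had its summit 3451 bp upstream, at percentile 49.9 in the control list and 44.5 in the db/db list. Without Cx3cr1, members had 23 regions in the control list and 28 in the db/db list.

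The other 6 surface genes had none. The nearest region to the TSS of Tmem119, a membrane protein used to tell microglia from other macrophages, was 15.3 kb away in both lists. For Siglech, a sialic acid lectin, it was 25.6 kb in both; for Fcrls, an Fc receptor-like protein, 19.6 kb in the control list and 19.5 kb in the db/db list. For the lysophosphatidylserine receptor gene Gpr34 on the X chromosome it was 78.2 kb and 129 kb, and for Hpgds, a prostaglandin D synthase, 101.6 kb and 14.4 kb.

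The genes of ITAM signalling carried regions, but these lay at other genes or away from the principal TSS. Tyrobp encodes DAP12, the adaptor of the lipid receptor Trem2. Its only region was the promoter of Nfkbid, at percentile 52.5 in the control list and 61.7 in the db/db list. Fcer1g encodes the common Fc receptor gamma chain; it had 1 region in each list and none at its own promoter. Trem2 had no region; the nearest was 9.02 kb away in the control list and 9.22 kb in the db/db list. Fcgr3, a receptor for the Fc part of IgG, was counted as open through a region at its most upstream annotated TSS, which also lies within 1 kb of the start of Mir6546, at 12.8 and 10.1. The nearest edge of that region was 4.30 kb from the principal TSS of Fcgr3 in the control list, and no region lay over either of its RefSeq promoters.

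The 3 C1q genes stand side by side on chromosome 4 and encode the chains of the protein that starts the classical complement pathway. C1qa and C1qc shared 1 region, chr4:136893998-136894438 in the control list, which had its summit 1069 bp upstream of C1qc and 4669 bp downstream of the C1qa TSS. Its signal was 7.06 in the control list and 7.03 in the db/db list, percentiles 19.0 and 35.1. C1qc was counted as open through the edge of this region, 0.933 kb from the TSS, and was not counted with a limit of 500 bp or by the position of the summit. The region of C1qb lay beyond its 3′ end, 9005 bp from the TSS, at percentile 26.3 in the control list and 48.9 in the db/db list. No C1q gene had a region over its TSS.

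None of the 6 integrin and pan-leukocyte genes had an open promoter. Itgam, the gene of the antigen removed first in the sort, had no region in either list, and the nearest to its TSS was 94.2 kb away in the control list and 70.5 kb in the db/db list. Itgax, which encodes CD11c, had none within 78.7 kb in both lists. Cd53, a tetraspanin of leukocytes, had none within 67.7 kb, and Laptm5, a lysosomal protein of blood cells, none within 20.4 kb. Ptprc, the gene of CD45, had 1 control region, in an intron 38664 bp downstream of its principal TSS, at percentile 21.2 in the control list and 29.0 in the db/db list. The 2 control regions of Cd52, a small surface glycoprotein of leukocytes, lay at or inside Crybg2, whose span overlaps it; the one at the Crybg2 TSS stood at 26.1 and 60.8 and the other at 84.0 and 90.5.

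The other antigens of the sort gave a measure beside Itgam. Pecam1, the gene of CD31, had 3 regions in the control list and 5 in the db/db list and no promoter region in either. Itgb1, the gene of CD29 by which the cells were kept, had an open promoter at percentile 59.8 in the control list and 68.4 in the db/db list.

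The lysosomal and macrophage genes had no open promoter. Aif1, whose product Iba1 is the usual stain for microglia, had 1 region 2744 bp upstream of its TSS, with a signal of 12.1 in the control list and 13.7 in the db/db list, percentiles 61.2 and 80.6. Cd68, a lysosomal glycoprotein of macrophages, had 2 regions that were promoters of neighbours. The one at Mpdu1 and Mir1934 stood at 97.3 and 97.5, and the one at Eif4a1 at 88.1 in the control list, where it spanned 1623 bp; in the db/db list this stretch was split into 2 regions, of which the one within 5 kb of Cd68 stood at 21.7. Mrc1, the mannose receptor of macrophages at vessels and meninges, had 1 intronic region at 56.4 and 72.4. Ctss, a cathepsin, had none within 61.6 kb of its TSS in the control list and none within 8.81 kb in the db/db list, Lyz2, lysozyme, none within 57.5 kb in both. Cd3e, a chain of the T cell receptor complex, had none within 42.5 kb in both.

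**Figure D3:**
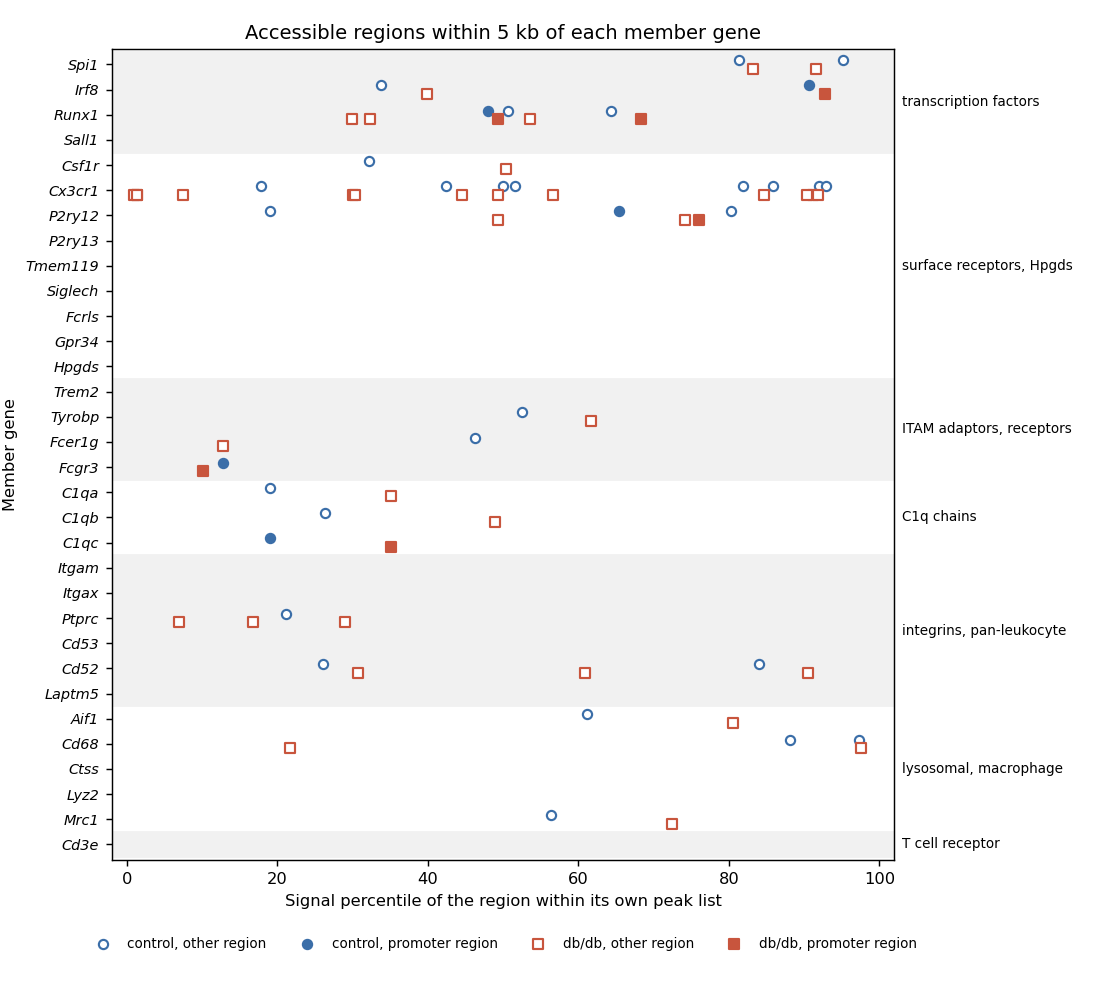
Signal percentile within its own peak list (x axis, 0 weakest to 100 strongest) of every region within 5 kb of each of the 32 members (rows, grouped by role), in the control list (blue circles) and the db/db list (red squares); filled symbols are promoter regions. Irf8 had the strongest promoter region, at 90.7 and 92.7, and the other promoter regions lay between 10.1 and 76.0.

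Over all members, the regions present ranked in the middle of each list. The median percentile was 52.5 in the control list (n = 31, 95% interval of the median from order statistics 42.4 to 81.3) and 49.3 in the db/db list (n = 41, 30.7 to 68.3), where the median over all regions lies at the middle of the scale by construction. Promoter regions of members had a median of 48.0 in the control list (n = 5) and 58.8 in the db/db list (n = 6), against 69.4 and 70.3 for the promoter regions of coding genes. The quartiles of the latter were wide, 37.3 to 88.4 in the control list. Over all regions of a gene list, Müller cell markers had medians of 26.7 in the control list and 24.0 in the db/db list. Rod markers had 15.6 and 36.6, and endothelial and pericyte markers 25.1 and 26.4. Other microglial and myeloid genes had 59.6 and 53.1, and T and B cell genes 49.9 and 43.2. Genes of liver, skeletal muscle and epidermis had 60.4 and 55.0. Rank is therefore not read as a measure of purity. The lowest −log10 q of a member region was 42.3 in the control list and 25.3 in the db/db list, where the lowest in the lists as deposited were 0.460 and 0.499. By signal, the weakest member regions stood at percentile 12.8 in the control list (Fcgr3) and 0.984 in the db/db list (Cx3cr1). Summits lay in an intron of the member for 18 of 31 control regions and 27 of 41 db/db regions, in an exon for 2 in each list and outside the gene for 11 and 12. Cx3cr1, whose long span holds other genes, gave 8 of the control regions and 13 of the db/db regions. Summit positions over all regions were not counted.

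Members were also set beside all other coding genes with the same number of regions. Coding genes with the region numbers of the 17 members would on average have given 13.9 open promoters in each list, where members had 5. Of the 10 members with exactly 1 control region, 20% had it at the promoter, against 76.7% of 6438 coding genes; in the db/db list it was 22.2% of 9 members against 74.1% of 5564. The mean percentile of the regions was 55.8 for members and 56.6 for such coding genes in the control list, and 49.6 and 54.1 in the db/db list. These are descriptions of the lists with no test.

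Between the genotypes, no region of a member was lost and 10 were gained. Of 31 control regions, 0 had no overlap with a db/db region (interval 0 to 11.03%), against 4.16% of all control regions. Of 41 db/db regions, 10 had no overlap with a control region, 24.4% with an interval of 13.8 to 39.3%, against 31.3% of all db/db regions. The count of members was near the background in both directions. Coding genes with equal region numbers gave 3.40% and 24.9%, against 0% and 23.8% for members when a region shared by 2 members counts for each.

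The 10 regions found in the db/db list alone belonged to 4 genes. Cx3cr1 had 5, of which 4 ranked very low, at percentiles 7.41, 1.39, 0.984 and 1.37, and 3 of these lay at or in Csrnp1; the fifth stood at 30.4. Runx1 had 2, both intronic, at 29.9 and 32.2. Ptprc had 2, both intronic, at 16.8 and 6.88. Cd52 had 1, at 30.7, within 1 kb of an annotated TSS of Crybg2. None was at the promoter of a member, and all ranked below the middle of the list. The ranks of all 20324 regions found in the db/db list alone were not set beside these. The low ranks are therefore not read as a trait of the members.

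The db/db list was longer by far, so the lists were also reduced to the same number of regions by the deposited −log10 p. Then 4 of 31 control regions had no db/db counterpart, 12.9%, against 13.1% of all control regions, and 0 of 27 db/db regions had no control counterpart, against 12.96% of all. The 4 were the regions at Ptprc, Fcgr3 and Fcer1g and the one shared by C1qa and C1qc. The direction of gain and loss at the members thus depended on the length of the lists. Open promoters of members in the shortened db/db list came to 3, at Irf8, P2ry12 and Runx1. The share of coding genes open in that list was not counted, so the fall is not read as a trait of the members.

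For 30 member regions, exactly 1 region of the opposite list overlapped, and these pairs were compared by percentile. The db/db percentile was above the control percentile for 23 and below it for 7, with a median difference of 5.52 points (SD 12.5), but the same was true of all 43519 such regions, with a median of 8.53 points (SD 11.2), the db/db percentiles being taken over more regions. Ranked among such paired regions alone, 10 member regions were higher in db/db and 20 lower, with a median of −4.44 points (95% interval −7.56 to 1.25, SD 11.2), against 0.0873 for all. On that scale the region upstream of Cx3cr1 went from 47.8 to 27.2 and the one at the Crybg2 TSS near Cd52 from 24.0 to 45.1. The region with the widest change, a fall near Fcer1g, is not reported by value. The promoter of Irf8 went from 90.2 to 89.3, that of P2ry12 from 63.8 to 65.1 and that of Runx1 from 45.9 to 31.96.

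**Figure D4:**
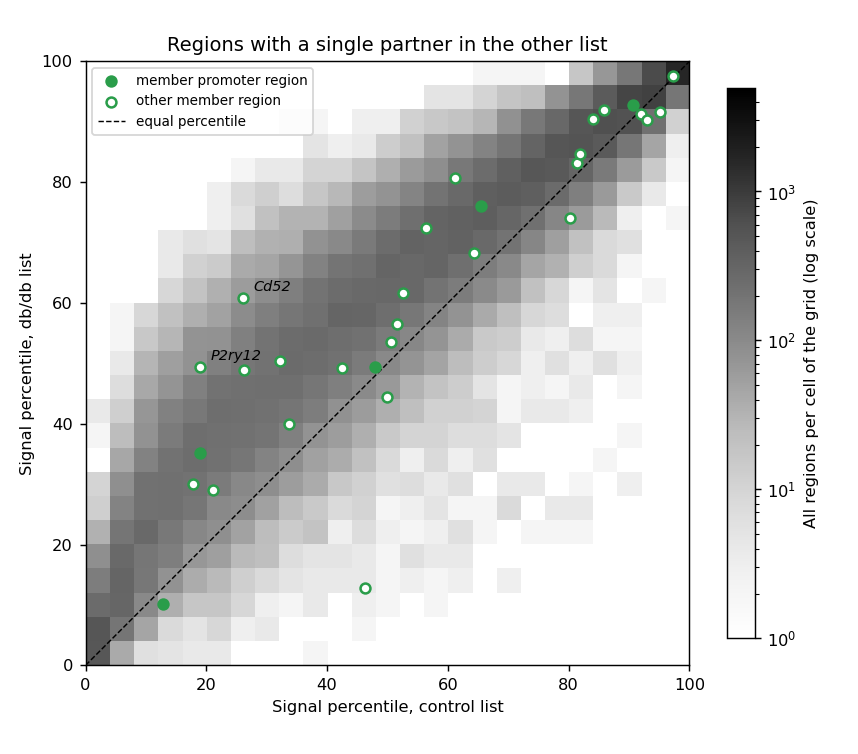
Signal percentile in the control list (x axis) against the db/db list (y axis) for paired regions, each the only partner of the other; the grey grid counts all 43519 regions on a log scale, green symbols are the 30 member regions (filled, promoter regions), and the dashed line marks equal percentiles. Most member regions lay with the bulk above the line.

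Markers of the other cells that the sort could hold were counted in the same way. The promoters of 14 of 14 Müller cell markers, Glul, Rlbp1 and Sox9 among them, were open in both lists. Over all coding genes the share was 59.4% in the control list and 62.5% in the db/db list. Rod markers were open at 11 of 12 promoters in the control list and 9 of 12 in the db/db list. Of their 38 control regions, 18 had no db/db counterpart, 47.4% against 4.16% of all control regions. Of their 25 db/db regions, 5 had no control counterpart, 20% against 31.3% of all db/db regions. Endothelial and pericyte markers were open at 6 of 13 promoters in both lists. Of their 51 db/db regions, 22 had no control counterpart, 43.1% against the same 31.3%. Of their 29 control regions, 0 had no db/db counterpart, against the same 4.16%. The part of these rod and vascular values in the member values was not tested. Genes of liver, skeletal muscle and epidermis, which the retina does not contain, were open at 4 of 18 promoters in the control list (Actn3, Ckm, Krt10 and Mylpf) and at 5 in the db/db list (with Krt1), 22.2% (9.001 to 45.2%) and 27.8% (12.5 to 50.9%), intervals that overlap that of the members.

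Lists of related immune genes gave similar or higher counts. Of 32 other microglial and myeloid genes, 9 had an open promoter in the control list, 28.1% (15.6 to 45.4%), and 11 in the db/db list, 34.4% (20.4 to 51.7%). Of 16 T and B cell genes, 2 were open in the control list, Lck and Pax5, and 3 in the db/db list, with Cd28. How small a share of microglia these lists could reveal was not tested, and fewer microglia in the sample and less open chromatin per microglial cell cannot be told apart in bulk cells.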

How the data were processed

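Chromatin accessibility was measured by ATAC-seq in 2 replicates per genotype at 6 months; the lists attached to replicate 1 of each were analysed here, and the others were not. The study's methods name csaw with loess normalisation and monaLisa for its own comparisons. The peak caller, its threshold, the sequencing depth and any pooling of replicates are not given in the sources used here, so values were compared within a list. The deposited columns of a peak are a score, a signal read as a ratio (fold enrichment), −log10 p, −log10 q and the offset of the summit in bases, on mm10 per the labels.

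Overlapping rows (81757 in the control list, 109995 in the db/db list) were merged to regions, keeping the row with the highest signal, with 46189 regions over 35.8 Mb and 64883 over 46.3 Mb. The length of a list depends on depth, which was not analysed here. Regions were assigned to GENCODE M21 genes with 5 kb to each side, a region could belong to 2 genes, and 1 bp of overlap counted as shared. In place of draws of genes, the mean over all other coding genes with the same number of regions was used. Shares have 95% Wilson intervals. Samples were grouped by their labels. Members and lists were chosen with earlier results of these data known. All members are accounted for. Genes of other lists are named where a count is 5 or fewer. Some further genes of those lists are named as examples or were chosen after their values were seen. Python 3.11.15, numpy 2.4.6, scipy 1.17.1, pandas 2.3.3 and matplotlib 3.10.9 were used. The counting was tested on simulated data with 2000 genes, and 5 of 5 planted shares were recovered. RefSeq promoter sequences were matched by symbol for 25 of 32 members, 78.1%, under the 80% set as a minimum, so the comparison of CpG content over members was void. Spi1, Csf1r, Tmem119, Gpr34, Tyrobp, C1qa and Cd52 had no entry. Some values are not reported here.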

Additional observations from a re-analysis of the deposited data

How the results depend on the processing

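Of 80 values recomputed under alternatives, 74 stayed within the 95% interval of the value reported. That count is a weak measure of stability, since it includes settings that changed no member region, and the intervals are wide. With lists of equal numbers, members with any db/db region came to 12 of 32 in place of 17, which still lay within the interval. With the gene body alone, members with any region came to 31.3% (10 of 32) in each list. With lists of equal numbers of regions, 12.9% of control regions and 0% of db/db regions were missing from the other list, and the median change in percentile turned to −4.62; it was −4.44 when percentiles were taken among regions with a single partner. That ranking, the principal TSS alone (3 of 32 members open in each list) and leaving out Cx3cr1 were chosen after seeing the data. Shares of coding genes were not counted with shortened lists, the gene body alone or the principal TSS alone. The counts of members under these settings therefore have no background beside them. Flanks of 10 kb, a 50% overlap, other promoter limits, autosomes alone, every row in place of merged regions, and leaving out regions of other genes, Cx3cr1 or Cd3e, Lyz2 and Mrc1 moved no value out of its interval. A −log10 q of at least 5 removed no member region, since the lowest was 25.3, and says nothing about stability. The other limit for CpG-rich promoters was not run, since that comparison was void. No paired analysis was possible because each genotype had 1 list and no test was made; leaving out a replicate was not possible for the same reason.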

Other observations

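Among the 32 other microglial and myeloid genes, some promoter values are given here that were chosen after they were seen. Tlr2, a receptor for bacterial lipoproteins, had an open promoter at percentile 47.2 in the control list and 45.2 in the db/db list. Tlr4, the receptor for lipopolysaccharide, stood at 72.5 and 83.2. Olfml3, a secreted protein, stood at 8.27 and 28.3.

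Il10ra, the receptor chain for interleukin 10, and Plcg2, a phospholipase of immune signalling, had an open promoter in the db/db list alone, at percentiles 45.3 and 34.1, with no region within 5 kb in the control list. Of the 55 db/db regions of these 32 genes, 16 had no control counterpart, 29.1%, against 31.3% of all db/db regions. Of their 41 control regions, 3 had no db/db counterpart, 7.32% against 4.16% of all, and these belonged to Dock2, Inpp5d and Syk. The promoter regions of Il10ra and Plcg2 had no overlap with a control region. The nearest control region was 31.3 kb from the TSS of Il10ra and 23.0 kb from that of Plcg2. With 1 list per genotype these values have no replicate check.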
